A study of Mus musculus with 22 samples.

Results

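DNA transposon families of the mouse genome were followed in RNA from embryonic stem cells (ESCs) of knockout experiments on Ythdc1, Mettl3 and Dux. The members are the repeat entries of the deposited count table whose names begin with Charlie, Tigger, Arthur, Cheshire, Looper, URR, Kanga, Zaphod or Chap. There are 89 of them among 44749 entries, of which 1077 are repeat families. A member is a family summed over all its copies in the genome, so its value carries no position and its copies cannot be told apart. DNA transposons move by excision and reinsertion through a transposase. The families named here are old and no longer move in the mouse, and their copies are fragments that lie mostly between genes and inside introns. Reads from such copies in total RNA therefore come largely from transcripts that run through them, including unspliced precursor RNA.

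By the standard classification of these names, 45 members (Charlie, Cheshire, URR and Chap) belong to the hAT-Charlie superfamily and 7 (Arthur and Zaphod) to hAT-Tip100. Another 29 (Tigger) belong to TcMar-Tigger, relatives of the pogo and mariner elements. The 7 Kanga families belong to TcMar-Tc2, and Looper is the 1 family of the piggyBac type.

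The cells were male 129 ESCs grown without feeders in serum and LIF. YTHDC1 is the nuclear reader of the RNA mark m6A, METTL3 is the methyltransferase that writes it, and Dux is a transcription factor of the cleavage-stage embryo. In the Ythdc1 set, 4 libraries came from Ythdc1 cKO (conditional knockout) cells given 4OHT, the ligand used to switch on an inducible Cre recombinase, and 4 from the same cells given DMSO, its solvent. The labels name 2 ESC lines for these libraries, but the columns of the table do not, so the comparison was 4 against 4. The Mettl3 set held 2 libraries labelled Mettl3 KO and 2 labelled Mettl3 WT. In the Dux set all 10 libraries carried Ythdc1 cKO, with 2 Dux-Het and 2 Dux-KO libraries per treatment and 1 library per treatment with no Dux label. No library came from 4OHT-treated cells without Ythdc1 cKO, so the effects of the ligand and of Ythdc1 loss cannot be told apart. The labels do not say that replicates were separate cultures, and p-values then measure only the spread between these libraries.

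Total counts ran from 24955414 to 54139132 per library. Ythdc1 stood at 49.0 to 62.8 CPM (counts scaled to library size, with TMM factors) in the 4 libraries given 4OHT in the Ythdc1 set, below the 70.8 to 80.2 CPM of the 4 DMSO libraries. In the Dux set this check did not separate the treatments: Ythdc1 had 58.9 and 86.5 CPM with DMSO and 52.2 and 65.9 CPM with 4OHT in Dux-Het, and 49.7 and 71.3 CPM with DMSO and 53.9 and 56.6 CPM with 4OHT in Dux-KO. Mettl3 itself had 14.5 and 28.4 CPM in the libraries labelled KO and 29.0 and 29.9 CPM in those labelled WT. Which part of the gene was deleted is not given, so a count over the whole gene is a weak check. Ythdc1 had 135.6 and 154 CPM in these KO libraries and 81.7 and 83.6 CPM in the WT libraries. The Dux entry, Duxf3, stayed at or under 0.0902 CPM in the Dux-KO libraries given 4OHT and reached 0.927 and 1.54 CPM in the Dux-Het libraries given 4OHT. All 8 ESC markers examined were detected in every library, with Pou5f1 between 151.8 and 514.5 CPM. Of 6 fibroblast markers, Lum was at 0 in 16 of 22 libraries and Dcn in 3. Col1a1 (4.48 to 38.6 CPM), Col1a2 (0.804 to 17.8 CPM), Thy1 (0.792 to 8.955 CPM) and Col3a1 (0.112 to 4.35 CPM) were detected in every library. The summed level of all 6 markers was 14.6 to 18.8 CPM under DMSO and 9.02 to 14.8 CPM under 4OHT in the Ythdc1 set. In the Mettl3 set it was 41.2 to 43.9 CPM in WT and 16.9 to 34.4 CPM in KO libraries. It was 16.1 and 58.3 CPM with DMSO and 24.7 and 32.3 CPM with 4OHT in Dux-Het, and 49.35 and 66.04 CPM with DMSO and 27.4 and 30.5 CPM with 4OHT in Dux-KO. The part of such cells in the results was not tested. In bulk RNA, fewer cells of a kind and less RNA per cell cannot be told apart.

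A pair of rodent families supplied the larger part of the signal. URR1A held 25.56% and URR1B 25.08% of all member counts, and together they held between 48.88% and 52.29% in every library. Both are short hAT-Charlie elements found in rodents. Tigger7 followed with 8.13% and Charlie1a with 5.46%. The other 6 of the 10 most abundant members, Charlie1, Tigger1, Tigger5b, Tigger17a, Tigger5 and Cheshire, brought the running sum to 75.75%. By superfamily, hAT-Charlie held 72.04%, TcMar-Tigger 24.94%, TcMar-Tc2 1.36%, hAT-Tip100 1.33% and Looper 0.342%. These are shares of counts and are not scaled to the length or copy number of a family, so they do not rank transcription between families. The low end was thin: 47 members averaged at least 10 CPM over the 22 libraries, 85 at least 1 CPM, and Tigger1a_Mars had 3 counts in all.

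The 89 families together made up less than 1 in every 100 counts in each library, and their share was higher with 4OHT in the Ythdc1 set. It was 0.373%, 0.434%, 0.431% and 0.421% of all counts in the DMSO libraries and 0.487%, 0.461%, 0.492% and 0.475% in the 4OHT libraries. Every 4OHT library lay above every DMSO library. As a share of repeat family counts alone the order was the reverse, with 1.75%, 1.82%, 1.81% and 1.82% under DMSO and 1.71%, 1.72%, 1.73% and 1.70% under 4OHT. The members thus gained less than repeat families did in sum, since all repeat families rose from 23.0% ± 1.18 to 27.9% ± 0.734 of counts (SD, n = 4 each), values given with no test.

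In the Mettl3 set the members held 0.467% and 0.484% of counts in the WT libraries and 0.466% and 0.513% in the KO libraries, and these ranges overlap. In the Dux set the DMSO libraries spread widely. Dux-Het DMSO libraries stood at 0.342% and 0.420%, and Dux-KO DMSO libraries at 0.278% and 0.408%. With 4OHT the values were 0.458% and 0.488% in Dux-Het and 0.459% and 0.468% in Dux-KO, above all the DMSO libraries of the set. A further measure ran opposite to these shares in the Ythdc1 set, but in the pair with no Dux label both were higher with 4OHT. 3 gene entries that lie over ribosomal DNA (Gm26917, Gm42418 and CT010467.1) held 9.56% to 11.7% of counts in the DMSO libraries of the Ythdc1 set and 7.69% to 8.90% in the 4OHT libraries. They held 15.6% in Dux-KO DMSO replicate 1, the library with the lowest member share, against 7.42% in Dux-KO DMSO replicate 2. With these 3 entries left out of the total, the member share of the Ythdc1 set still did not overlap, at 0.423% to 0.484% under DMSO and 0.499% to 0.541% under 4OHT. Dux-KO DMSO replicate 1 remained lowest, at 0.329%. Why these entries differed between libraries, and their part in the shares beyond this, was not tested.

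**Figure D1:**
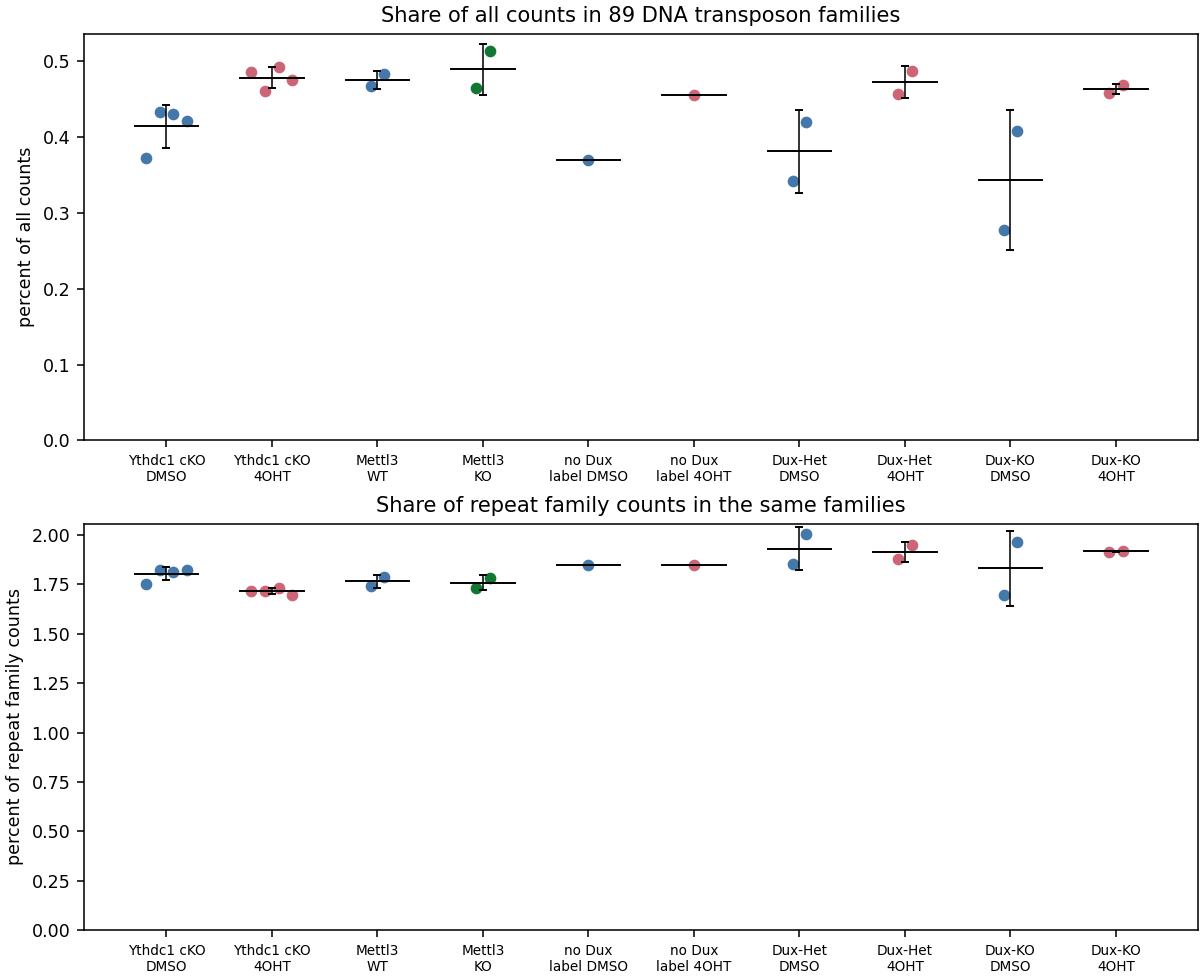
Share of the 89 DNA transposon families in each library, as percent of all counts (top) and percent of repeat family counts (bottom). Points are libraries, horizontal bars group means and whiskers SD where a group has more than 1 library. In the Ythdc1 set the 4OHT libraries (0.461% to 0.492%) lie above the DMSO libraries (0.373% to 0.434%) in the top panel and below them in the bottom panel, and Dux-KO DMSO replicate 1 is the lowest point of the top panel.

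The first comparison asks what happened to each family when Ythdc1 cKO cells were given 4OHT. Of the 86 members with enough counts to test, 31 rose and 1 fell with 4OHT (edgeR quasi-likelihood test, Benjamini-Hochberg adjusted p under 0.05 over all 24385 entries). Across all entries 23.7% rose and 21.4% fell, and across the 1032 repeat families tested 61.7% rose. The members' count lies above the share of all entries and below that of repeat families. The sizes were small: 81 of 86 had a positive log2 fold change, beside 958 of 1032 repeat families and 12507 of 24385 entries. The median of the 86 was 0.20, a 1.15-fold difference. All repeat families tested had a median of 0.28 and all entries a median of 0.02. In 26 members every 4OHT library lay above every DMSO library and in 2 every one lay below, against 20.9% and 20.7% of all entries. The 3 members left out for low counts were Charlie1b_Mars, Cheshire_Mars_ and Tigger1a_Mars. Of the 32 calls, 20 held in each of the 8 fits that left out 1 library. The test had no term for the number in the column names. With that number as a replicate block 34 members were higher, against 25.5% of all entries, and Charlie17b was lost. Scaling the libraries on repeat families alone, which shifts the median of all entries by -0.29, left 3 of the 31 higher and gave 7 lower, against 12% and 38.5% of all entries, with a median of -0.09 over the members.

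**Figure D2:**
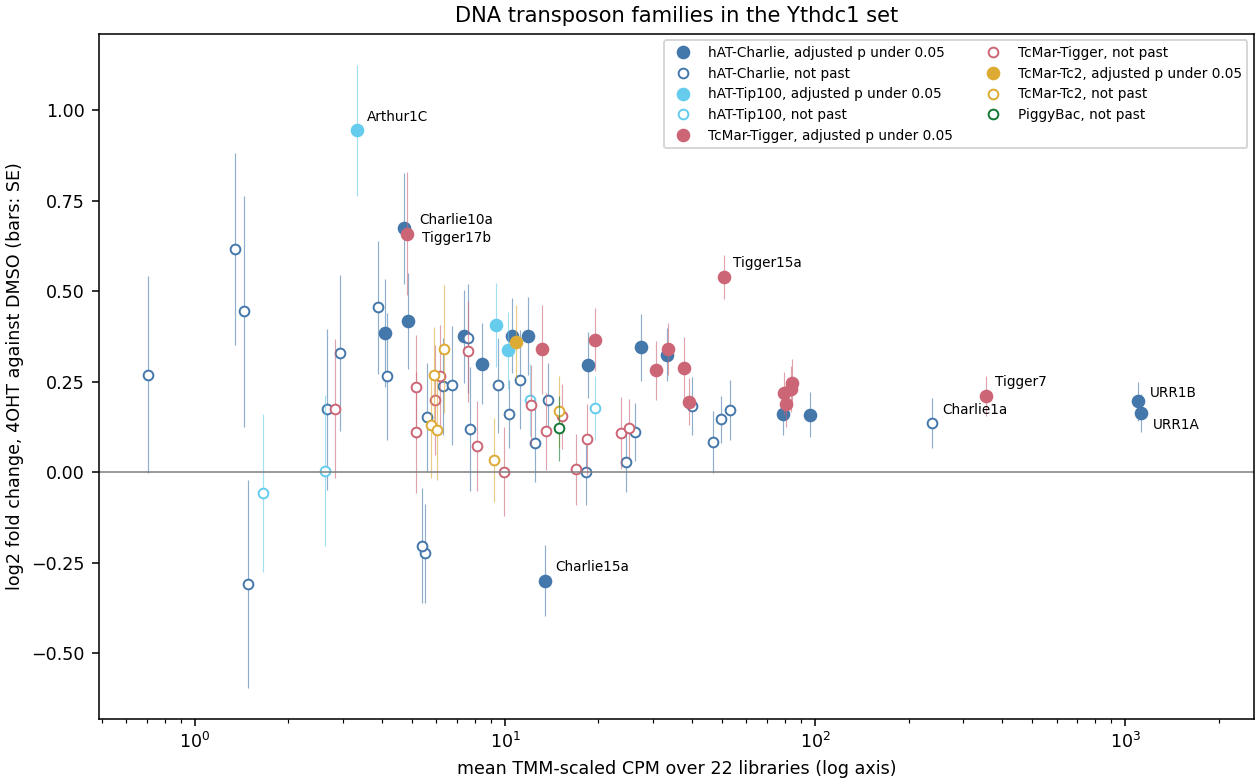
Log2 fold change of each tested member in the Ythdc1 set, 4OHT against DMSO, against its mean level in TMM-scaled CPM over 22 libraries on a log axis. Filled points passed an adjusted p of 0.05, open points did not, colours give the superfamily and bars the standard error. Most members lie between 0 and 0.50 and the bars widen toward low levels. Under scaling on repeat families alone the median of these points moves from 0.20 to -0.09.

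The most abundant pair changed little. URR1A stood at 1044, 1172, 1178 and 1149 CPM in the DMSO libraries and at 1259, 1209, 1299 and 1249 CPM in the 4OHT libraries. URR1B stood at 1004, 1124, 1133 and 1098 CPM under DMSO and at 1242, 1164, 1286 and 1231 CPM under 4OHT. For both families the lowest 4OHT library lay above the highest DMSO library, and DMSO replicate 1 was the lowest of all. The log2 fold change was 0.16 (SE 0.05, edgeR adjusted p = 0.0183) for URR1A and 0.20 (SE 0.05, edgeR adjusted p = 0.00742) for URR1B, or 1.12-fold and 1.15-fold. URR1A missed the threshold without 4OHT replicate 3 (log2 0.15, edgeR adjusted p = 0.0565) and, when libraries were scaled on repeat families alone, was called lower, at -0.12.

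Tigger7, the most abundant pogo-like family, stood at 312, 350, 344 and 329 CPM under DMSO and at 392, 365, 390 and 375 CPM under 4OHT, with no overlap. It rose by a log2 fold change of 0.21 (SE 0.05, edgeR adjusted p = 0.00492), and the sign turned to -0.08 when libraries were scaled on repeat families alone. Charlie1a, a hAT-Charlie family, was the 1 member of the 10 most abundant that did not pass the test. Its DMSO libraries had 211, 256, 249 and 240 CPM and its 4OHT libraries 261, 246, 285 and 242 CPM. Those groups overlap, and the log2 fold change was 0.14 (SE 0.07, edgeR adjusted p = 0.126). The other 6 rose by log2 fold changes between 0.16 for Charlie1 and Cheshire and 0.25 for Tigger1, and all 6 turned negative under repeat family scaling, from -0.13 for Charlie1 and Cheshire to -0.04 for Tigger1. Tigger1, Tigger5 and Tigger5b passed in all 8 fits that left out 1 library. Charlie1 (edgeR adjusted p = 0.0483) passed in 2 of them, those without DMSO replicate 2 or 4OHT replicate 2, with edgeR adjusted p from 0.0532 to 0.131 in the other 6. It also missed the threshold with DESeq2 (DESeq2 adjusted p = 0.0647) and with the authors' factors (edgeR adjusted p = 0.0659). Cheshire (edgeR adjusted p = 0.0328) passed in 2 of the 8, those without 4OHT replicate 2 or 4OHT replicate 4, with edgeR adjusted p from 0.052 to 0.0909 in the other 6. Tigger17a missed it without DMSO replicate 1 (edgeR adjusted p = 0.0636), DMSO replicate 4 (edgeR adjusted p = 0.0542) or 4OHT replicate 3 (edgeR adjusted p = 0.0706).

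**Figure D3:**
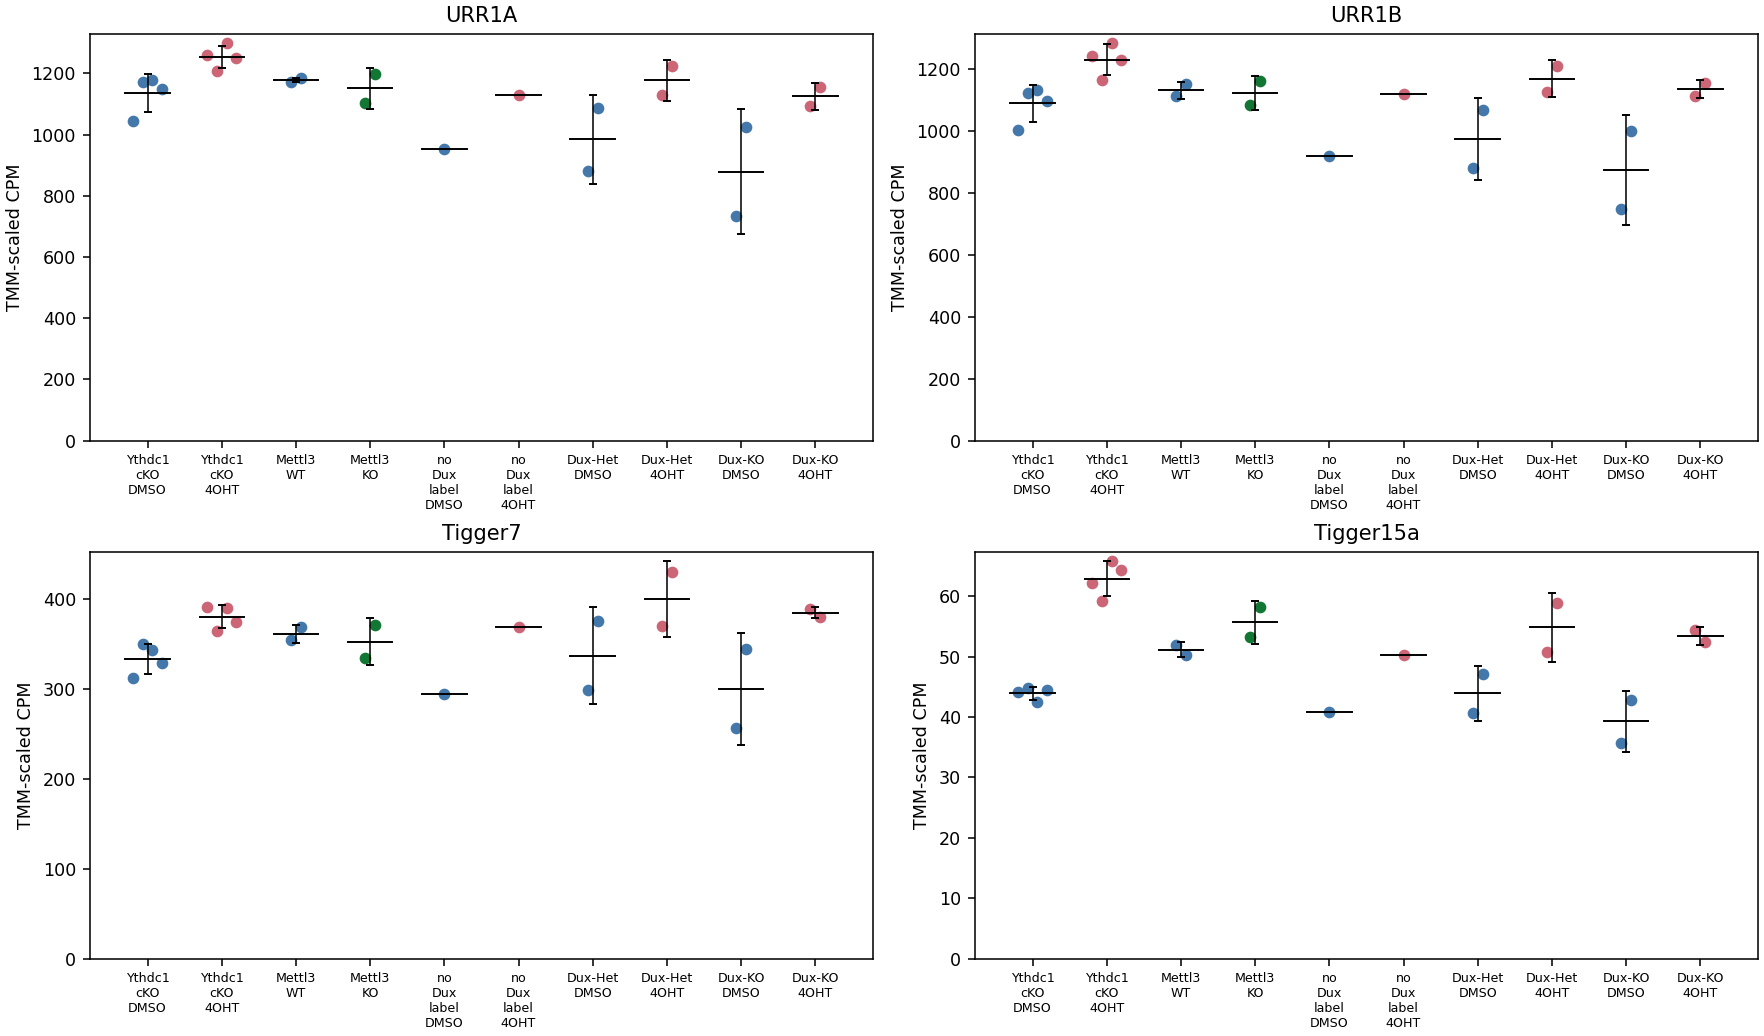
TMM-scaled CPM of URR1A, URR1B, Tigger7 and Tigger15a in each of the 22 libraries. Points are libraries, horizontal bars group means and whiskers SD where a group has more than 1 library. In the Ythdc1 set the 4OHT libraries lie above the DMSO libraries in each panel, for example 59.2 to 65.8 against 42.4 to 44.8 for Tigger15a. In the Mettl3 set the groups overlap for URR1A, URR1B and Tigger7.

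Tigger15a combined a larger change with a firm count. Its DMSO libraries stood at 44.1, 44.8, 42.4 and 44.4 CPM and its 4OHT libraries at 62.2, 59.2, 65.8 and 64.4 CPM. The gap between the groups exceeded the range within either of them. The log2 fold change was 0.54 (SE 0.06, edgeR adjusted p = 2.6e-06), or 1.45-fold. Tigger15a was 1 of 3 members, with Arthur1C and Charlie10a, that stayed higher under every setting tried, repeat family scaling included (log2 0.25, 0.65 and 0.39).

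The largest fold changes were in thinly counted families. Arthur1C, a hAT-Tip100 family, had 2.14, 3.07, 1.81 and 2.73 CPM under DMSO and 5.28, 4.28, 4.70 and 4.26 CPM under 4OHT. All 4 libraries given 4OHT exceeded the highest DMSO library, and the log2 fold change was 0.94 (SE 0.18, edgeR adjusted p = 0.000463). Charlie10a went from 4.43 ± 0.793 CPM to 6.99 ± 0.877 CPM (SD, n = 4 each), a log2 fold change of 0.67 (SE 0.15, edgeR adjusted p = 0.00184). Tigger17b had 2.31, 3.35, 3.53 and 3.67 CPM under DMSO and 5.37, 4.32, 5.39 and 4.94 CPM under 4OHT, and rose by 0.66 (SE 0.17). Charlie21a rose by 0.42 and Zaphod3 by 0.41. Charlie21a missed the threshold without 4OHT replicate 3 (log2 0.38, edgeR adjusted p = 0.0504). On repeat family scaling Tigger17b, Charlie21a and Zaphod3 kept a positive sign (0.37, 0.13 and 0.12) but no longer passed.

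How often a member passed followed its count. Among the 29 most abundant members, from 18.4 to 1120 CPM, 18 rose and all 29 fold changes were positive, with a median standard error of 0.07. Among the next 29, 8 rose and 1 fell. Among the 28 least abundant, 5 rose, with a median standard error of 0.17. Of all entries 23.7% rose and 21.4% fell, so the rises among the least abundant lay below the share of all entries. The median log2 fold change was 0.19, 0.20 and 0.25 from the most to the least abundant of these groups, so they differed in precision more than in size. In the last group a difference of 0.20 is about the size of the standard error.

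By superfamily, 14 of 43 hAT-Charlie families rose and 1 fell, 13 of 28 TcMar-Tigger families rose, and 3 of 7 hAT-Tip100 and 1 of 7 TcMar-Tc2 families rose. Their median log2 fold changes were 0.20, 0.21, 0.20 and 0.17. Of all entries 23.7% rose and 21.4% fell, so the rises in TcMar-Tc2, at 14.3%, lay below that share. All 28 Tigger families tested had a positive fold change, beside 958 of 1032 repeat families and 12507 of 24385 entries. Within Arthur, Arthur1B rose (log2 0.34, SE 0.11) along with Arthur1C, while Arthur1 (0.18) and Arthur1A (0.00) did not pass. Arthur1B missed the threshold without 4OHT replicate 3 (0.27, edgeR adjusted p = 0.0659). Of the Zaphod families only Zaphod3 passed, with Zaphod at 0.20 and Zaphod2 at -0.06. Kanga1 stood at 10.4, 10.2, 11.2 and 11.6 CPM under DMSO and at 13.6, 13.4, 15.35 and 12.3 CPM under 4OHT, with no overlap, a log2 fold change of 0.36 (SE 0.10, edgeR adjusted p = 0.00855). The other 6 Kanga families had values from 0.03 for Kanga1c to 0.34 for Kanga1a and did not pass. Looper stood at 14.8, 16.1, 17.1 and 15.3 CPM under DMSO and 17.3, 15.6, 18.4 and 16.5 CPM under 4OHT, groups that overlap (log2 0.12, SE 0.09, edgeR adjusted p = 0.293). Chap1_Mam, at 0.46 (SE 0.18), narrowly missed the threshold in the same test.

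Charlie15a was the 1 member called lower. It had 18.3, 17.2, 13.8 and 15.8 CPM under DMSO and 12.5, 13.6, 13.4 and 12.5 CPM under 4OHT. The groups did not overlap, although the lowest DMSO library was close to the highest 4OHT library. Its log2 fold change was -0.30 (SE 0.10, edgeR adjusted p = 0.0202). The call was lost without DMSO replicate 1 (-0.24, edgeR adjusted p = 0.0625), without DMSO replicate 2 (-0.28, edgeR adjusted p = 0.0577) and without 4OHT replicate 1 (-0.28, edgeR adjusted p = 0.0512). The other 4 members with a negative fold change, Charlie10b (-0.31), Charlie13b (-0.22), Charlie7a (-0.20) and Zaphod2, did not pass the test.

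Other lists of repeats gave fold changes of like or larger size. Among DNA transposons outside the named families, mainly the short MER elements, 30 of 64 rose and none fell, with a median log2 fold change of 0.22. Of 13 L2, L3, L4 and MIR families, which are old retroelements, 12 rose (median 0.23). All 15 B1, B2 and B4 families, the short interspersed elements of rodent introns, rose by a median of 0.17. The young L1Md and IAP families, which still include copies able to move, had a median of 0.45, with 26 of 31 higher. Gene entries had a median of -0.01, and of all entries 23.7% rose and 21.4% fell. Whether the medians of these lists differ was not tested.

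**Figure D4:**
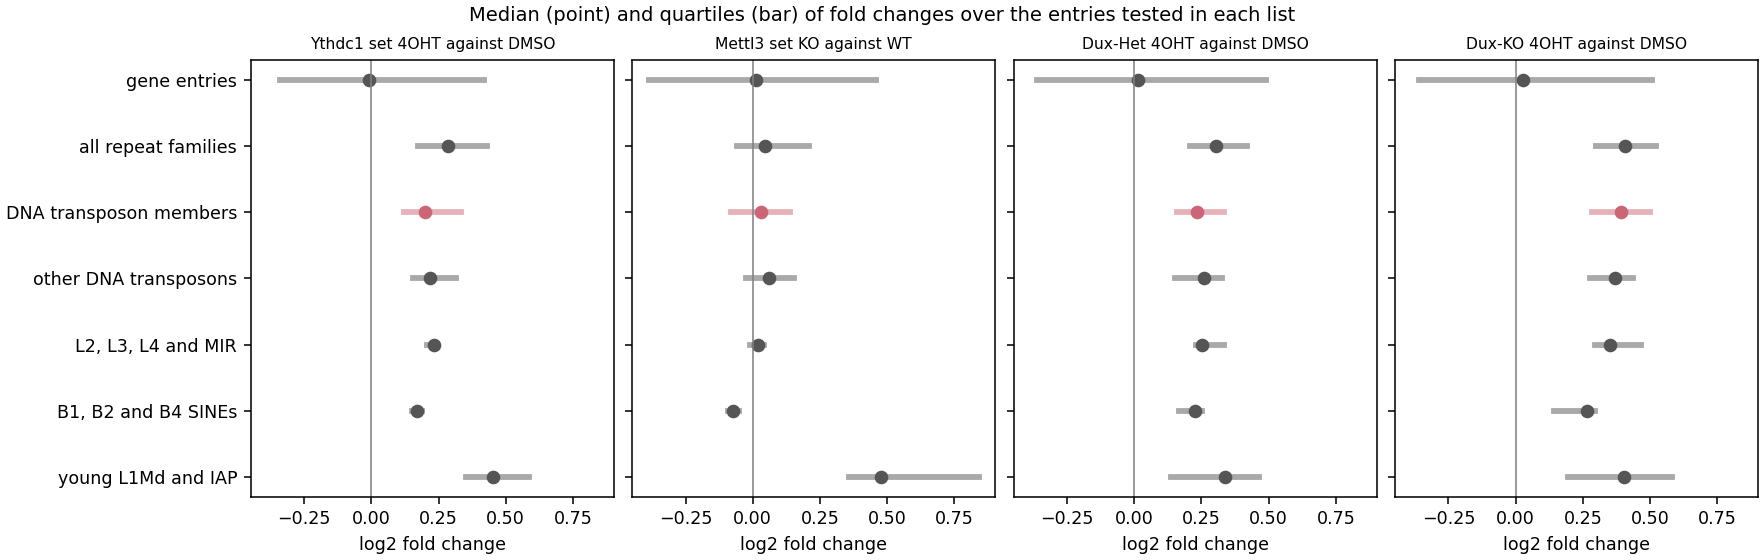
Median (point) and quartiles (bar) of log2 fold changes over the entries tested in each list, for 4 comparisons. The DNA transposon families (red) have medians of 0.20 in the Ythdc1 set, 0.03 in the Mettl3 set, 0.23 in Dux-Het and 0.39 in Dux-KO. Each is close to the lists of other DNA transposons and of L2, L3, L4 and MIR, while gene entries centre near 0. With libraries scaled on repeat families alone the members' medians are -0.09, -0.02, -0.06 and -0.01.

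Host genes that descend from DNA transposases, or are thought to, were listed as well. Of 16 such genes tested in the Ythdc1 set, 3 rose and 7 fell, with a median log2 fold change of -0.42, against 23.7% of all entries higher and 21.4% lower. Whether they differ from the families was not tested. Zbed6, derived from a hAT element (chromosome 1, 133655879 to 133660885, mm10 gene models of GENCODE vM21), went from 183.2 to 130.2 CPM, a log2 fold change of -0.47 (SE 0.06, edgeR adjusted p = 5.59e-06). It lies within Zc3h11a, and how reads over both were counted is not given. Zbed4 fell by 0.55 and Pgbd5, of piggyBac descent, fell by 1.34 on the log2 scale. The pogo-like genes were mixed: Jrkl fell by 1.35 and Jrk by 0.45, Cenpb rose by 0.21, Tigd5 rose by 0.83, and Pogz (-0.09), Tigd2 (-0.05) and Tigd3 (-0.58) did not pass. Tigd4, Rag1 and Rag2 were too low to test. In the Mettl3 set 1 of 16 passed, Pogz, which was higher by 0.49, against 16.4% of all entries higher and 14.9% lower.

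Long noncoding RNAs that stay in the nucleus or are left largely unspliced were listed beside the families. Of 16 tested in the Ythdc1 set, 10 rose and 3 fell, with a median log2 fold change of 0.46, against 23.7% and 21.4% of all entries. Neat1, the scaffold of paraspeckles, rose from 58.2 to 190.2 CPM (log2 1.73, SE 0.09). Malat1, of nuclear speckles, rose by 0.38, and Kcnq1ot1, an unspliced imprinted transcript, by 0.55. Tug1 fell by 1.21, Snhg14 by 0.41 and Nespas by 0.31. The imprinted Meg3 (0.19) and Rian (0.12) did not pass. For the Mettl3 set 4 of 15 were higher and 4 lower, against 16.4% and 14.9% of all entries. Kcnq1ot1, Nespas and others here overlap genes on the opposite strand, and whether counting used strand is not given. No link between these RNAs and the transposon families was tested.

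The Mettl3 comparison asks whether loss of the m6A writer moves the same families. Of 87 members tested, 1 was called higher and 1 lower, against 16.4% and 14.9% of all 23977 entries (edgeR) and 10.7% and 2.04% of repeat families. The median log2 fold change was 0.03, with 49 of 87 positive, beside 619 of 1028 repeat families and 12222 of 23977 entries. URR1A stood at 1173 and 1184 CPM in WT and at 1102 and 1199 CPM in KO libraries. URR1B had 1113 and 1152 CPM in WT and 1084 and 1162 CPM in KO libraries. In both families KO replicate 1 was the lowest and KO replicate 2 the highest, so the KO libraries enclosed the WT libraries. Their log2 fold changes were -0.02 (SE 0.07) and 0.00 (SE 0.07). Tigger7 was at 354 and 369 CPM in WT and 334 and 371 CPM in KO libraries, with a log2 fold change of -0.02 (SE 0.08).

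Tigger10 was the 1 member called lower in the Mettl3 set, and it had risen in the Ythdc1 set. It had 26.1 and 25.1 CPM in WT and 16.9 and 19.1 CPM in KO libraries, which do not overlap, and its log2 fold change was -0.49 (SE 0.12, edgeR adjusted p = 0.0129). The call was lost without WT replicate 1 (edgeR adjusted p = 0.183) or WT replicate 2 (edgeR adjusted p = 0.133), with the size nearly unchanged at -0.48 and -0.52. The member called higher, Charlie1b_Mars, rested on 0 and 3 counts in WT against 14 and 11 in KO libraries. Charlie1b_Mars passed the filter on low counts only here and in the test of the difference from the Ythdc1 set. In the Mettl3 set it did so only through the KO libraries, where it was high, so its call gives no support for a rise. Its call was lost with DESeq2 (DESeq2 adjusted p = 0.112), and its log2 fold change was 2.08 without WT replicate 1. The KO libraries were uneven: without KO replicate 1, 6 members were higher and 2 lower, against 18.9% and 18.8% of all entries. Without KO replicate 2, 1 was higher and 7 were lower, against 18.8% and 19.5%. These counts lie below the shares of all entries. Without either WT library none was called. The replicate block gave none higher, against 16.6% of all entries. The young L1Md and IAP families, by contrast, had 21 of 31 higher in the main test of the same libraries, against 16.4% of all entries.

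A direct test compared the effect of 4OHT in the Ythdc1 set with the effect of KO in the Mettl3 set, in 1 model of 12 libraries. The difference passed in 7 of 87 members, all with the larger value in the Ythdc1 set, against 13.7% of all 28260 entries higher and 11.6% lower. Among repeat families 27.6% were higher and 1.15% lower. The median difference over the members was 0.23 on the log2 scale. Tigger10 differed by 0.90 (SE 0.15, edgeR adjusted p = 0.000201), Charlie10a by 1.23 (SE 0.27), Tigger12 by 0.78 (SE 0.21), Kanga1 by 0.63 (SE 0.18), Tigger15a by 0.44 (SE 0.11), Tigger1 by 0.37 (SE 0.12) and Tigger7 by 0.27 (SE 0.10, edgeR adjusted p = 0.0404). When the number in the column names entered as a replicate block, 12 members passed, against 15.2% of all entries. Without WT replicate 2 or without KO replicate 1 of the Mettl3 set 3 passed, against 8.49% and 10.4% of all entries higher, and 11 passed without DMSO replicate 3 of the Ythdc1 set, against 13.2%. Scaling on repeat families left 2 higher and 1 lower, against 6.58% and 18.2% of all entries.

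Charlie10a shows the contrast in single libraries. It had 3.49, 5.37, 4.69 and 4.19 CPM with DMSO and 5.90, 7.76, 7.64 and 6.65 CPM with 4OHT in the Ythdc1 set. In the Mettl3 set it had 4.99 and 5.05 CPM in WT and 3.89 and 3.08 CPM in KO libraries. The 4OHT libraries lay above all their controls and the KO libraries below theirs, although the Mettl3 change alone did not pass (log2 -0.51, SE 0.22, edgeR adjusted p = 0.112). Tigger12 also had opposite signs, at 0.34 (SE 0.12) in the Ythdc1 set, where its groups overlapped and the call was lost in 4 of the 8 fits without 1 library (edgeR adjusted p of 0.0827 without DMSO replicate 1, 0.0859 without DMSO replicate 2, 0.102 without 4OHT replicate 1 and 0.0896 without 4OHT replicate 3). With Mettl3 KO it was at -0.40 (SE 0.17, edgeR adjusted p = 0.110). Over the 86 members tested in both sets, 46 fold changes were positive in both, 35 were positive in the Ythdc1 set only, 2 in the Mettl3 set only and 3 in neither.

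**Figure D5:**
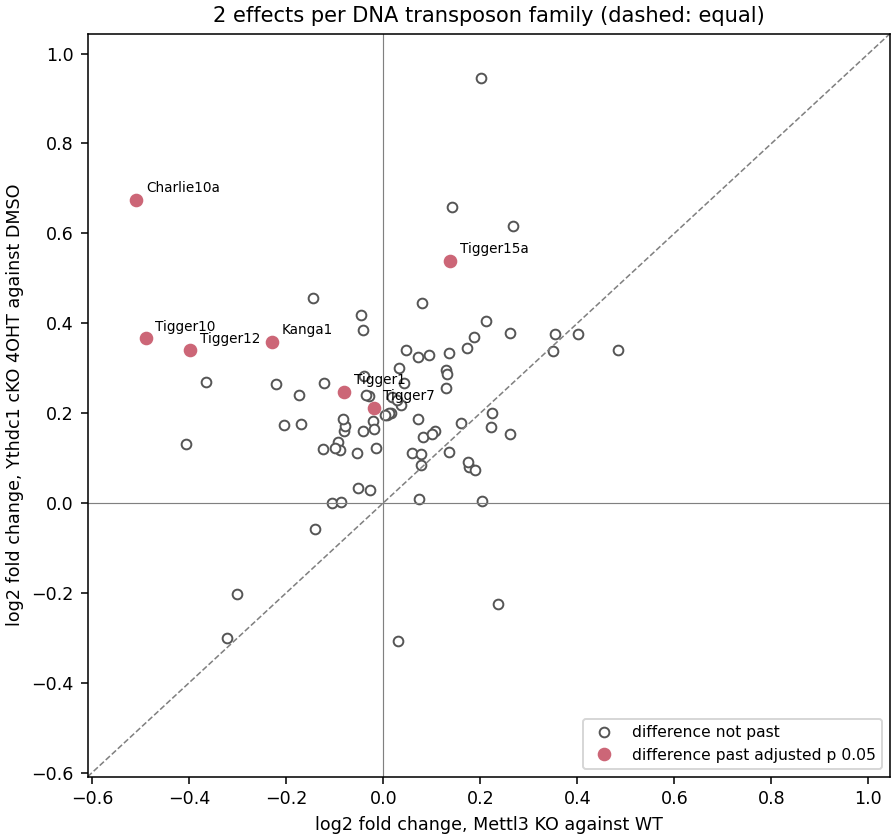
Log2 fold change of each member tested in both sets, Mettl3 KO against WT (horizontal) and Ythdc1 cKO 4OHT against DMSO (vertical). Filled points are the 7 members whose 2 effects differed at an adjusted p of 0.05, and the dashed line marks equal effects. Points spread to both sides of 0 along the horizontal axis, while 81 of the 86 lie above 0 on the vertical axis. Under scaling on repeat families alone the members' vertical median is -0.09.

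The Dux set repeats the 4OHT treatment in Ythdc1 cKO cells labelled Dux-Het or Dux-KO, and in a pair of libraries with no Dux label. No member passed the test in Dux-Het, where 4.99% of all 29322 entries were higher and 4.34% lower (edgeR), or in Dux-KO, where 5.5% were higher and 4.36% lower. At an unadjusted p under 0.05 edgeR gave 3 members in Dux-Het and 26 in Dux-KO, and DESeq2 called 0 and 1 (Tigger8) after adjustment, against 5.56% and 5.74% of all entries higher and 5.77% and 6.56% lower. The direction was nearly uniform among members and repeat families alike. Fold changes were positive in 80 of 86 members in Dux-Het and 84 of 86 in Dux-KO, with medians of 0.23 and 0.39. Of 1047 repeat families 973 and 995 were positive, and of all 29322 entries 15393 and 15690. All entries had medians of 0.04 and 0.05. Repeat families had medians of 0.30 and 0.41, with 1.91% and 5.83% of them called higher. These directions were not those of repeat family scaling, under which the members' medians were -0.06 and -0.01.

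URR1A stood at 882 and 1086 CPM in Dux-Het DMSO libraries and at 1129 and 1225 CPM with 4OHT. In Dux-KO it stood at 734 and 1024 CPM with DMSO and at 1094 and 1157 CPM with 4OHT. The 4OHT libraries lay above their DMSO libraries in both genotypes, but the 2 DMSO libraries of each genotype were further apart than the 2 libraries given 4OHT. The log2 fold changes were 0.28 (SE 0.17, edgeR adjusted p = 0.353) and 0.40 (SE 0.17, edgeR adjusted p = 0.166), with -0.02 and 0.00 under repeat family scaling. Tigger15a had 40.8 and 47.1 CPM in Dux-Het DMSO libraries and 50.8 and 58.9 CPM with 4OHT. In Dux-KO it had 35.7 and 42.9 CPM with DMSO and 54.5 and 52.4 CPM with 4OHT. Again no 4OHT library reached down to its DMSO libraries, with log2 fold changes of 0.34 (SE 0.16, edgeR adjusted p = 0.207) and 0.49 (SE 0.16, edgeR adjusted p = 0.0751). Arthur1C came nearest to the threshold in Dux-Het (log2 0.80, SE 0.25, edgeR adjusted p = 0.0707), and Tigger8, a pogo-like family, in Dux-KO (log2 0.91, SE 0.28, edgeR adjusted p = 0.0602).

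The medians of both genotypes depended on which DMSO library was kept. Dux-KO DMSO replicate 1 was the lowest library for URR1A, URR1B, Tigger7, Charlie1a and Tigger15a, and it held the highest share of the ribosomal DNA entries. Without it the members' median log2 fold change in Dux-KO fell from 0.39 to 0.17, and without Dux-KO DMSO replicate 2 it was 0.57, with 5 members called, against 3.69% of all entries higher. A replicate block gave 8 members higher, against 7.98% of all entries. In Dux-Het the median was 0.11 without DMSO replicate 1 and 0.40 without DMSO replicate 2.

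Whether Dux changes the response was tested directly. No member differed between Dux-KO and Dux-Het in the size of the 4OHT effect (edgeR, 0 of 29322 entries passed, 0 members at an unadjusted p under 0.05, and 0 members by DESeq2, where 0.00682% of entries were lower), and the median difference of 0.12 became -0.06 without Dux-KO DMSO replicate 1 and -0.03 without Dux-Het DMSO replicate 2, against 0.33 without Dux-KO DMSO replicate 2 and 0.28 without Dux-Het DMSO replicate 1. For URR1A the difference was 0.13 with a standard error of 0.24, which leaves room for a difference in either direction. The genotypes themselves were also not separated. Under DMSO no member passed in Dux-KO against Dux-Het, where 0% of entries were higher and 0.0341% lower, with a median of -0.16 over the members that became 0.03 without Dux-KO DMSO replicate 1 and 0.01 without Dux-Het DMSO replicate 2, against -0.38 and -0.30 without the other DMSO library of each genotype. Under 4OHT none passed either, where 0.00341% of entries were higher and 0.273% lower, with a median of -0.03. In both genotype comparisons 0 members had an unadjusted p under 0.05 by edgeR and 0 were called by DESeq2, which called 0.058% of entries lower under DMSO and 0.362% under 4OHT.

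The libraries with no Dux label give a pair without replicates. Their values have exact Poisson intervals at 95% that cover counting error only. URR1A was at 952.7 CPM (943.0 to 962.5) with DMSO and 1130 CPM (1121 to 1140) with 4OHT, Tigger7 at 294.1 CPM (288.6 to 299.5) and 368.6 CPM (363.0 to 374.2), and Tigger15a at 40.8 CPM (38.8 to 42.8) and 50.3 CPM (48.3 to 52.5). For each of these families the interval with 4OHT lay above that with DMSO. Looper, by contrast, had 13.9 CPM (12.7 to 15.1) with DMSO and 13.2 CPM (12.2 to 14.3) with 4OHT, which overlap. Over the 87 members with at least 10 counts the median log2 ratio was 0.23, with 79 positive. Medians were 0.28 for all repeat families and 0.02 for all entries. Of 1049 repeat families 963 were positive, and of 28453 entries 14715. In this pair the ribosomal DNA entries held 9.19% of counts with DMSO and 9.96% with 4OHT, the opposite order to the Ythdc1 set.

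Tigger12 and Cheshire_Mars differed in level between the sets, which is given without a test because the sets are separate cells and libraries. They were singled out after their levels were seen, and how many other members or entries separate in this way is not given. Tigger12 ran from 6.31 to 9.54 CPM in the Ythdc1 set, from 9.58 to 15.9 CPM in the Mettl3 set and from 15.3 to 20.3 CPM in the Dux set. The Ythdc1 set lay below both other sets whatever the treatment or genotype, although its highest library nearly met the lowest Mettl3 library. The Mettl3 and Dux ranges overlapped near their shared edge. Cheshire_Mars, a minor family, had 650 counts over the 22 libraries. It ran from 0.756 to 1.45 CPM in the Ythdc1 set and from 0.245 to 0.656 CPM in the other 14 libraries. The origin of these differences, in cells or in library preparation, cannot be told apart.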

How the data were processed

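RNA-seq of 22 mouse ESC libraries was used. The authors deposited a table of raw counts per gene and repeat family, made with STAR 2.7, Bowtie2 and RSEM on mm10, per the submitters' processing notes, which give these names without their order or role. The sources used here do not give how reads with several matches, reads over both a gene and a repeat, or strand were handled. Per the labels, total RNA was freed of ribosomal RNA with RNase H, which keeps unspliced RNA. A table of normalized signal deposited by the authors equals the counts divided by 1 factor per library. Its 34971 complete lines were used only for those factors, as an alternative scaling.

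Columns were mapped to groups by their titles, because in the Dux set the genotype and treatment fields sit 1 sample off from the titles. No column of per-sample values was left unused. CPM here are TMM-scaled over 22 libraries. Tests were edgeR 4.0.16 quasi-likelihood fits (R 4.3.3, limma 3.58.1) on all entries passing filterByExpr within each set, with Benjamini-Hochberg adjustment over all of them and a threshold of 0.05. The 10 Dux libraries shared 1 fit, and the difference between sets came from 1 fit of the Ythdc1 and Mettl3 libraries. The pair without replicates got exact Poisson intervals and a pseudocount of 0.5 CPM. The steps were tested on simulated data.

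Members named are the 10 with the highest mean CPM, the 6 largest and 6 smallest fold changes past the threshold in the Ythdc1 set, up to 5 per direction elsewhere, members past it in opposite directions, and all members of the small families. Other members named for a level or a fold change (Charlie10b, Charlie13b, Charlie7a, Tigger8) were chosen after their values were seen. So was the comparison of Tigger12 and Cheshire_Mars between sets. The members and lists were chosen with earlier results of these data known.

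Same-numbered Ythdc1 set columns deviated together from their group means (correlations of 0.331, 0.13, 0.359 and 0.34 over 10172 entries), so the numbers were taken to pair these libraries. The main tests had no term for these pairs. The pairs entered only through the replicate block, as an alternative. Alternatives were DESeq2 1.42.0 and its size factors, TMM from genes or repeat families alone, the authors' factors, no filter on low counts, a replicate block, only the libraries compared, each library left out in turn and, added after seeing the data, leaving out the 3 ribosomal DNA entries. The closing section gives their effect.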

Additional observations from a re-analysis of the deposited data

Results flagged for a closer look

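In 7 families the effect of 4OHT in the Ythdc1 set exceeded that of KO in the Mettl3 set, by a test of the difference itself (edgeR, adjusted over all entries). They are 7 of 87 members, a share below the 13.7% of all entries that passed in that direction. The differences were 1.23 for Charlie10a, 0.90 for Tigger10, 0.78 for Tigger12, 0.63 for Kanga1, 0.44 for Tigger15a, 0.37 for Tigger1 and 0.27 for Tigger7 on the log2 scale. Charlie10a and Tigger10 passed under all 20 alternatives, Tigger12 under 17, Kanga1 under 16, Tigger1 under 10 and Tigger7 under 6, with its sign turned under 1. Tigger15a lost its call only when libraries were scaled on repeat families alone (0.16, edgeR adjusted p = 0.374).

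In 4 groups of 4 libraries a value lay far from the other 3, out of 80 groups examined, and chance alone gives about 1 in 20. Kanga1a had 5.21 CPM in DMSO replicate 4 of the Ythdc1 set, below the other DMSO libraries, and Kanga1c had 11.8 CPM in 4OHT replicate 1, above the other 4OHT libraries. Tigger10 had 21.9 CPM in 4OHT replicate 4, below the other 4OHT libraries but still above all DMSO libraries. The members' share of repeat family counts was 1.75% in DMSO replicate 1, below the other DMSO libraries.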

How the results depend on the processing

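Scaling on repeat families alone was the choice that moved most values. In the Ythdc1 set it left 3 members higher and gave 7 lower, and it turned the sign of Charlie1 (-0.13), Charlie1a (-0.15), Cheshire (-0.13), Tigger1 (-0.042), Tigger13a (-0.0000), Tigger17a (-0.10), Tigger17c (-0.093), Tigger5 (-0.072), Tigger5b (-0.059), Tigger7 (-0.078), Tigger9b (-0.01), URR1A (-0.12) and URR1B (-0.093). In Dux-Het it gave URR1A -0.021, URR1B -0.018, Tigger7 -0.031 and Charlie1a -0.12, and in Dux-KO URR1A -0.0010, Tigger7 -0.0025 and Charlie1a -0.11. For the difference between the Ythdc1 and Mettl3 sets it left 2 higher and 1 lower, with Tigger7 at -0.0025. This scaling sets the repeat families to no net change by its construction. With each library left out in turn, members higher in the Ythdc1 set ran from 22 to 33 and members lower from 0 to 1, members higher in the Mettl3 set from 0 to 6 and lower from 0 to 7, members higher in Dux-KO from 0 to 5, and differences from 3 to 11. In the Mettl3 set the 1 member higher became 0 with every entry tested, with DESeq2 and with the replicate block. In Dux-KO 1 member was higher with every entry tested, 1 with DESeq2, 1 with only the libraries compared and 8 with the replicate block. Same-numbered libraries also deviated together in Dux-Het (0.545) and Dux-KO (0.243), less so in the Mettl3 set (0.0766). With only 2 numbers per group and no statement in the labels, these were not taken as pairs. With the replicate block 34 members were higher in the Ythdc1 set, 30 of them among the 31, against 25.5% of all entries. With it 12 differences passed, against 15.2% of all entries. The cause of these changes was not tested. Leaving out the ribosomal DNA entries kept the same 31 calls in the Ythdc1 set. The standard errors were widest for the thinly counted families, and the Mettl3 and Dux sets had 2 libraries per group.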
